A study of Rattus norvegicus with 19 samples.

Results

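The 10 genes described here build or organise the neuronal cytoskeleton and were followed across rat spinal cord cultures: Nefl, Nefm, Nefh, Ina, Prph, Tubb3, Map2, Mapt, Stmn2 and Gap43. The 10 genes were taken by symbol from a table of 15597 genes, and all 10 were present and passed the filter on low values, which left 11887 genes tested. RNA was sequenced from primary cultures of embryonic ventral spinal cord (Sprague-Dawley rats, embryonic day 14, wild type), which hold neurons, glia and other cells. The study asked what long-chain polyphosphate and medium from astrocytes with mutant SOD1 do to the transcripts of these cultures. Control cultures were untreated (n = 5). The polyP cultures received long-chain synthetic polyphosphate, a linear polymer of phosphate, at 100 µM for 90 min (n = 5). The wtSOD1-ACM cultures received, for 90 min, astrocyte-conditioned medium (ACM) from mouse astrocytes that express wild-type human SOD1 (n = 4). The mutSOD1-ACM cultures received, for 90 min, ACM from astrocytes of neonatal mice transgenic for human SOD1 with the substitution G93A, a cause of familial amyotrophic lateral sclerosis (n = 5). All recipient cells were thus rat cells without a transgene, and only the medium differed. Medium from non-transgenic astrocytes is mentioned in the protocols but is not analysed here, so the untreated control does not control for conditioned medium as such. Culture age differs between the labels (7 days in vitro in the tissue field, 4 days at treatment, and up to 9 days in the growth protocol), and this was not resolved. The labels speak of 4 to 5 independent cultures per condition and the series text of quadruplicates; whether each library is a separate culture was not tested, so p-values measure the spread between these libraries.

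Neurofilaments are the intermediate filaments of neurons. The light chain (Nefl), the medium chain (Nefm) and the heavy chain (Nefh) assemble together with α-internexin (Ina) in central neurons or with peripherin (Prph) in motor, sensory and autonomic neurons, and they set the calibre of large axons. Microtubules are polymers of α- and β-tubulin; Tubb3 encodes the β-tubulin isotype most typical of neurons, Map2 binds microtubules mainly in dendrites and Mapt (tau) mainly in axons. Stmn2 (SCG10) binds tubulin dimers in growing axons, and Gap43 encodes a membrane protein of growth cones. Neurofilament proteins released from damaged axons are used as a fluid marker in amyotrophic lateral sclerosis, which is a protein measurement and differs from the transcript levels described here.

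Levels are FPKM, which corrects fragment numbers for transcript length and library size, so genes can be compared per length. Summed FPKM per library ran from 446366 to 515541, and 11309 to 11723 genes reached an FPKM of 1. The absolute depth is unknown; relative depth, recovered from the steps between low values, ran from 0.763 to 1.35. No pair of libraries held identical values. Clustering of the libraries gave 2 sets that cut across all groups: set 1 with 11 libraries (3 control, 3 polyP, 2 wtSOD1-ACM and 3 mutSOD1-ACM) and set 2 with 8 (2 of each group). The labels name no batch, and the sets are a description of the data. Summed oligodendrocyte markers (8 genes) lay at 349 to 656 FPKM in set 1 and at 56.1 to 75.9 FPKM in set 2. Pan-neuronal markers (12 genes) summed to 1096 to 1560 FPKM in set 1 and to 1451 to 1698 FPKM in set 2.

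Among the controls, replicate 2 stood apart for these genes. It held the lowest FPKM of all 19 libraries for 8 of the 10 genes (all but Prph and Map2), against 22.6% of all tested genes. Its values came to between 55.7% (Stmn2) and 86.2% (Prph) of the mean of control replicates 1 and 3, with a median of 62.9% over the 10 genes, while the median over all tested genes was 97.6%. The 8 microglia markers summed to 460.5 FPKM in that library and to 58.9 to 222.5 FPKM in the other libraries of set 1. Its astrocyte marker sum was 513.3 FPKM (371.3 to 448.8 elsewhere in set 1) and its pan-neuronal sum 1096 FPKM (1203 to 1560). Its relative depth was 1, that of the median library. In bulk RNA, fewer neurons and less RNA per neuron cannot be told apart, and the part of these markers in the low values was not tested. Because this library lies among the controls, the contrasts against control are given with and without it where that matters.

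The pan-neuronal markers were detected in every library. Of the 7 motor neuron markers in the table, Chodl stood at 7.99 ± 0.946 FPKM in control (SD, n = 5) and Slc18a3, the vesicular acetylcholine transporter, at 1.08 ± 0.374 FPKM. The other 5 lay below 1 FPKM on average, from Chat, the acetylcholine-synthesising enzyme (0.794 ± 0.302 FPKM), down to Mnx1, a motor neuron transcription factor (0.03 ± 0.0212 FPKM). RNA came from whole cultures, so the values below are not resolved by type of neuron.

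The 10 genes spanned a wide range of levels. In control, Tubb3 stood highest at 561 ± 122 FPKM (SD, n = 5 here and in the following control values) and ranked 88 among all genes by control mean. Stmn2 followed at 356 ± 80.6 FPKM, then Mapt at 244 ± 42.3, Gap43 at 225 ± 45.7 and Ina at 186 ± 42.9 FPKM. Map2 stood at 102 ± 19.5 and Nefl at 82.8 ± 18.7 FPKM, Nefm at 41.7 ± 8.07 FPKM, Nefh at 4.01 ± 0.952 FPKM and Prph at 3.03 ± 1.18 FPKM. Neighbours in this order whose means differed by less than the larger of their SDs were Mapt and Gap43, Gap43 and Ina, Map2 and Nefl, and Nefh and Prph. α-Internexin thus had the highest FPKM of the 5 intermediate filament genes, and the heavy chain had less than the light and medium chains in every library. The same order of group means held in all 4 groups, except that Gap43 lay above Mapt in polyP.

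**Figure D1:**
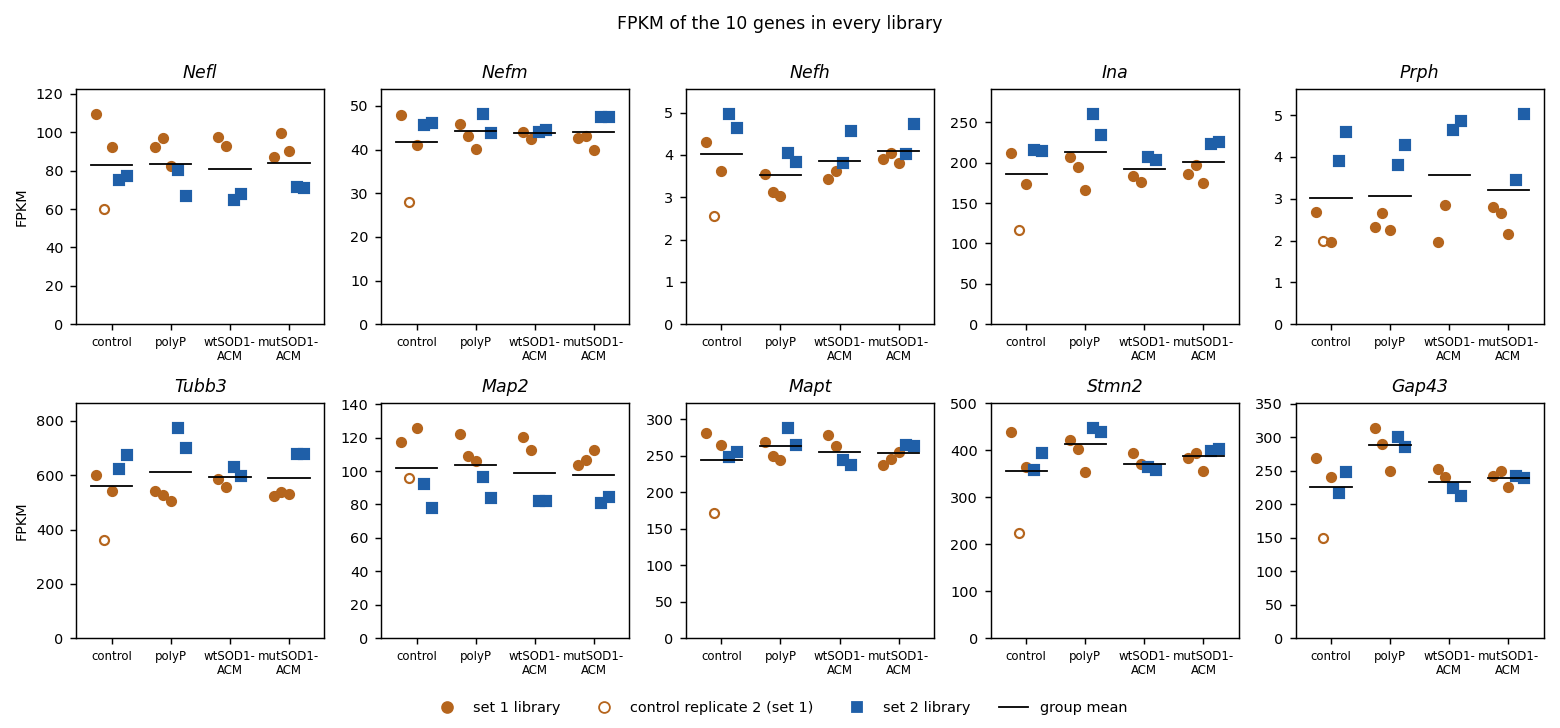
FPKM (vertical axis, from 0) of the 10 genes in every library, by group (horizontal axis); circles are set 1, squares set 2, the open circle is control replicate 2 and lines are group means. The open circle is the lowest point for 8 of the 10 genes, and for Prph every square lies above every circle.

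Other genes of the same families give the scale. Vim (vimentin, 1748 ± 106 FPKM in control), Nes (nestin, 189 ± 22.2) and Lmna (lamin A/C, 126.5 ± 14.5) had the highest control levels of the 8 other intermediate filament genes listed. Tuba1a (4725 ± 553 FPKM), Tubb2b (1800 ± 220) and Tubb5 (1133 ± 123) led the other tubulins. Tubb3 made up 12.0% ± 1.41 of the summed β-tubulin FPKM in control. Stmn1 (883 ± 184 FPKM) exceeded Stmn2 in level, while Stmn3 (241 ± 63.1) and Stmn4 (195 ± 50.7) lay below it. Map1b (241 ± 32.4 FPKM), Dclk1 (160 ± 12.7) and Dcx (147 ± 28.3) were the highest of the other microtubule-associated proteins.

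The neurofilament chains differed in how they varied between libraries. Nefl stood at 109.35, 60.03, 92.12, 75.33 and 77.35 FPKM in control replicates 1 to 5. Its values were 92.43, 96.82, 82.20, 80.21 and 66.85 FPKM in polyP, 97.34, 93.05, 64.97 and 67.96 FPKM in wtSOD1-ACM, and 87.16, 99.65, 90.06, 71.71 and 70.97 FPKM in mutSOD1-ACM. The groups overlapped fully, and in each group the set 2 libraries (the last 2 replicates) lay below the set 1 libraries, apart from control replicate 2. Over all groups Nefl averaged 90.9 ± 12.4 FPKM in set 1 (n = 11) and 71.9 ± 5.35 FPKM in set 2 (n = 8).

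Nefm went the other way. It stood at 47.89, 27.96, 41.01, 45.53 and 46.00 FPKM in control, at 45.97, 43.02, 40.21, 48.08 and 43.87 FPKM in polyP, at 44.11, 42.53, 44.10 and 44.42 FPKM in wtSOD1-ACM and at 42.55, 43.01, 39.81, 47.55 and 47.56 FPKM in mutSOD1-ACM. Apart from control replicate 2, all libraries lay between 39.81 and 48.08 FPKM, the narrowest span relative to level among the neurofilament genes. The ratio of Nefm to Nefl within a library was 0.432 to 0.497 in set 1 and 0.595 to 0.679 in set 2, with no overlap. Control replicate 2, with a ratio of 0.466, lay inside the set 1 range although both of its levels were low.

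Nefh, the heavy chain, stood at 4.30, 2.56, 3.62, 4.96 and 4.63 FPKM in control and at 3.54, 3.13, 3.04, 4.05 and 3.84 FPKM in polyP. Its values were 3.44, 3.63, 3.80 and 4.57 FPKM in wtSOD1-ACM and 3.90, 4.04, 3.82, 4.02 and 4.72 FPKM in mutSOD1-ACM. The groups overlapped. Within each set the polyP libraries lay below the control libraries, except that control replicate 2 was the lowest of all. The share of all genes that separate in this way was not counted.

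Ina stood at 212.24, 116.38, 173.55, 215.08 and 214.42 FPKM in control and at 207.38, 194.90, 166.47, 259.73 and 234.34 FPKM in polyP. It ran from 176.41 to 207.11 FPKM in wtSOD1-ACM and from 174.92 to 225.61 FPKM in mutSOD1-ACM. The 2 highest values of all libraries were the polyP libraries of set 2. The ratio of Ina to Nefl was 1.88 to 2.24 in set 1 and 2.77 to 3.51 in set 2.

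Prph had the largest ratio between the sets. It stood at 2.68, 2.00, 1.96, 3.90 and 4.59 FPKM in control, 2.32, 2.67, 2.25, 3.80 and 4.28 FPKM in polyP, 1.96, 2.85, 4.65 and 4.86 FPKM in wtSOD1-ACM and 2.80, 2.66, 2.16, 3.45 and 5.02 FPKM in mutSOD1-ACM. All 11 libraries of set 1 lay at or below 2.85 FPKM and all 8 of set 2 at or above 3.45 FPKM, and the mean of set 2 was 1.81 times that of set 1. Summed motor neuron markers (7 genes in the table) lay at 8.98 to 10.2 FPKM in set 1 and 11.0 to 12.3 FPKM in set 2. In control, Chodl alone made up most of this sum. Summed sensory neuron markers (6 genes in the table) lay at 6.65 to 10.8 and 9.42 to 15.2 FPKM. Their part in the level of Prph was not tested.

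Tubb3 and Map2 moved in opposite directions between the sets. Tubb3 stood at 602.18, 360.61, 543.59, 623.63 and 676.27 FPKM in control and at 543.59, 527.69, 505.72, 773.45 and 700.13 FPKM in polyP. In wtSOD1-ACM it ran from 557.77 to 630.11 FPKM and in mutSOD1-ACM from 523.22 to 679.82 FPKM. Its set means were 529 ± 62.3 and 670 ± 54.3 FPKM for sets 1 and 2. Map2 stood at 117.66, 95.81, 125.70, 91.97 and 78.12 FPKM in control, ran from 83.63 to 122.33 FPKM in polyP, from 81.86 to 120.17 FPKM in wtSOD1-ACM and from 81.06 to 112.49 FPKM in mutSOD1-ACM. Its set means were 112 ± 8.92 and 84.9 ± 6.06 FPKM, and without control replicate 2 the sets did not overlap (103.75 to 125.7 against 78.12 to 96.15 FPKM). Mapt, in contrast, averaged 251 ± 29.8 and 258 ± 15.7 FPKM in the sets, so that the ratio of Map2 to Mapt ran from 0.419 to 0.558 in set 1 and from 0.306 to 0.370 in set 2.

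**Figure D2:**
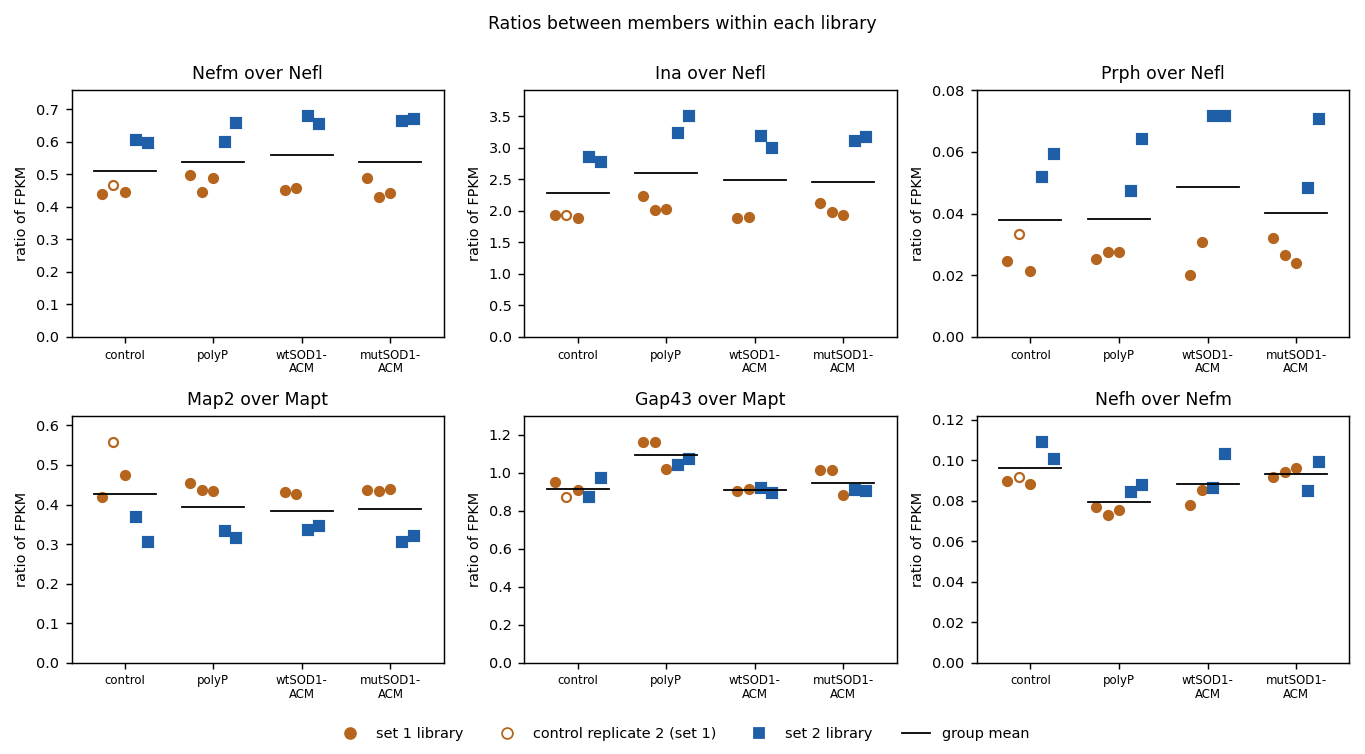
Ratios of FPKM between pairs of the genes within each library (vertical axes, from 0), by group (horizontal axes), with the symbols of the plot of levels. Nefm, Ina and Prph over Nefl and Map2 over Mapt separate the sets (0.432 to 0.497 against 0.595 to 0.679 for Nefm over Nefl), while Gap43 over Mapt lies at 1.02 to 1.16 in polyP and at 0.873 to 1.01 in the other groups.

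Promoter sequences are shown for Ina and Tubb3, whose matched entries start at the gene's own start. Between these genes r was 0.909 over 19 libraries after subtraction of the set means, and 0.718 over 18 without control replicate 2. Both were higher in set 2. Over the 19 libraries Ina ran closer to Stmn2 (0.977) and Tubb3 closer to Mapt (0.975). The sequences are the 150 bases before the annotated start, 5′ to 3′ on the plus strand. They come from RefSeq on build GRCr8, which is not the build the authors aligned to. Entries for 4 of the 10 genes were matched, and these 2 start at the gene's own start. Capitals mark GGGCGG (the GC box) and TATAA (the core of the TATA box), both searched on either strand. Ina lies at chr1:255837979-255838128 and Tubb3 at chr19:68365537-68365686.
Ina: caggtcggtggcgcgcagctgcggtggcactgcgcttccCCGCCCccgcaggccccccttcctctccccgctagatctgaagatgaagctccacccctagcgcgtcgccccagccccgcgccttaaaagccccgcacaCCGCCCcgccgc
Tubb3: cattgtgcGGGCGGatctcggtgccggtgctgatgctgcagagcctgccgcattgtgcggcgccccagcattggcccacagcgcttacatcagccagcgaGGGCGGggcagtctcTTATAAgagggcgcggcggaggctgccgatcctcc
GGGCGG occurred 2 times in each window, on the minus strand in Ina and on the plus strand in Tubb3; 26% of the 33469 windows of this length searched hold it. TATAA occurred in the Tubb3 window on both strands in overlapping letters, 35 to 30 bases before the start, and in 15.2% of all windows. These letters were not in the Ina window. The GC content was 73.3% for Ina and 67.3% for Tubb3, against a median of 52.7% over all windows. A match of letters is a description and says nothing of binding.

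Mapt stood at 280.97, 171.71, 264.76, 248.74 and 255.16 FPKM in control and at 269.43, 249.77, 244.09, 287.94 and 265.21 FPKM in polyP. It ran from 237.39 to 278.17 FPKM in wtSOD1-ACM and from 237.87 to 264.60 FPKM in mutSOD1-ACM, so that all groups overlapped. Stmn2 stood at 438.84, 223.64, 364.08, 358.25 and 394.83 FPKM in control and at 421.90, 403.83, 353.61, 447.54 and 438.77 FPKM in polyP. It ran from 357.68 to 395.19 FPKM in wtSOD1-ACM and from 355.87 to 402.45 FPKM in mutSOD1-ACM. The polyP libraries of set 2 lay above both controls of that set, and in set 1 control replicate 1 lay above all 3 polyP libraries. How many of all genes separate within set 2 was not counted.

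Gap43 was the 1 gene of the 10 that passed the test in any comparison. It stood at 268.10, 150.09, 241.00, 217.14 and 248.39 FPKM in control and at 313.38, 290.37, 248.96, 300.18 and 285.03 FPKM in polyP. Only control replicate 1 lay above the lowest polyP library. In set 2, with 2 libraries in each group, the groups did not overlap, and the share of all genes without overlap was not counted. In wtSOD1-ACM its values were 252.23, 240.52, 224.75 and 212.38 FPKM, and in mutSOD1-ACM 241.21, 248.85, 226.19, 241.36 and 238.42 FPKM. Both ACM groups lay inside the range of the controls. Without control replicate 2 the controls ran from 217.14 to 268.10 FPKM, and wtSOD1-ACM replicate 4 (212.38 FPKM) lay below them.

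In polyP against control, Gap43 rose from 225 ± 45.7 to 288 ± 24.1 FPKM (SD, n = 5 each), a log2 fold change of 0.38 on the log2(FPKM + 1) scale (SE 0.114, 95% interval 0.14 to 0.62, limma adjusted p = 0.017 over all genes). The other 9 genes did not pass. Gap43 was thus 1 of 10 called, against 31.8% of all tested genes called in this comparison (23.0% higher and 8.77% lower). The share among the 10 genes lay below that of all genes, and 9 of the 10 had estimates above 0. The median log2 fold change was 0.12 over the 10 genes and 0.04 over all tested genes.

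Stmn2 had the next smallest p (log2 fold change 0.24, SE 0.125, limma adjusted p = 0.147), followed by Ina (0.21, SE 0.150, adjusted p = 0.305). The estimates of Mapt (0.12), Tubb3 (0.13) and Nefm (0.11) were of similar size to the median. Nefl, Map2 and Prph had estimates of 0.03 each, with 95% intervals of -0.29 to 0.36, -0.28 to 0.34 and -0.45 to 0.52. Nefh had the 1 estimate below 0, at -0.13 (SE 0.118, adjusted p = 0.414). The 95% interval of Gap43 (0.14 to 0.62) overlapped those of all the other genes except Nefh (-0.38 to 0.12). Differences between genes were not tested.

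**Figure D3:**
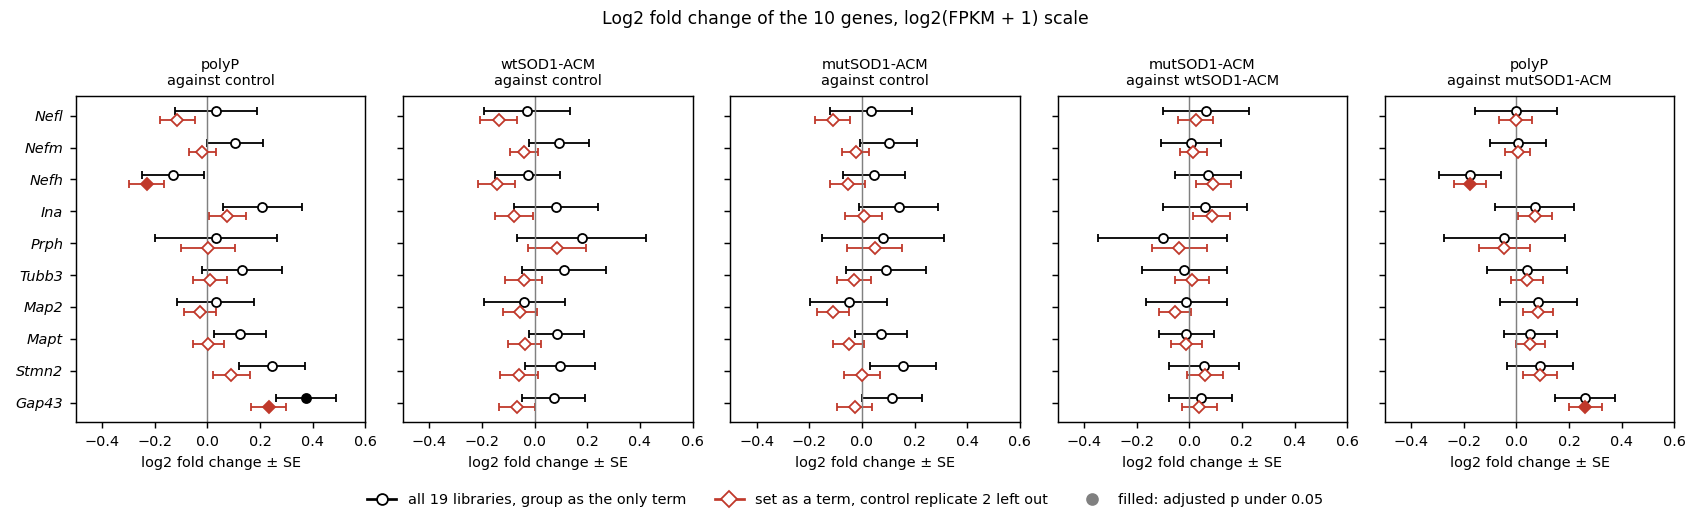
Log2 fold changes on the log2(FPKM + 1) scale (horizontal axes; bars are ± SE) of the 10 genes in the 5 comparisons; black circles use all 19 libraries with group as the only term, red diamonds add the set as a term and leave out control replicate 2, and filled symbols have an adjusted p under 0.05. Gap43 is filled in polyP against control in both fits (0.38 and 0.23), and in the 3 contrasts against control every diamond lies to the left of its circle.

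The call for Gap43 held in all 19 fits that left out 1 library (log2 fold change 0.24 to 0.45, adjusted p 0.0064 to 0.0448). Without control replicate 2 the change was 0.24 (adjusted p = 0.0181). The call was lost within set 1 alone (0.41, adjusted p = 0.126), after scaling all libraries to equal summed FPKM (0.26, adjusted p = 0.0629) and with only the 2 groups in the fit (0.38, adjusted p = 0.0722); within set 2 it was 0.33 (adjusted p = 0.00545). With equal summed FPKM, the median over all genes in this comparison went from 0.04 to -0.06 and that of the 10 genes from 0.12 to 0.00, so the upward estimates of the other genes depend on the scaling. The split of all genes called was 2736 higher and 1043 lower as deposited, and 1404 higher and 1667 lower after that scaling. Gap43 lay 0.33 above the median of all genes as deposited and 0.32 above it after that scaling.

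Control replicate 2 also bore on the other genes. Without it the median of the 10 genes was -0.01 (0.03 over all genes). The estimate of Stmn2 then fell to 0.09 (adjusted p = 0.396) and that of Ina to 0.05 (adjusted p = 0.787), while that of Nefh became -0.25 (adjusted p = 0.0609). With the set as a term and control replicate 2 left out, an analysis added after the data were seen, Nefh was called lower (-0.23, SE 0.066, adjusted p = 0.00869) and Gap43 higher (0.23, SE 0.067, adjusted p = 0.00921). Stmn2 passed without control replicate 1 (0.33, adjusted p = 0.0469) and within set 2 (0.24, adjusted p = 0.0232), where Ina passed as well (0.20, adjusted p = 0.0367).

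Ratios within a library do not depend on its scaling and are given without a test. Gap43 over Mapt was 1.02 to 1.16 in polyP and 0.873 to 0.974 in control. It was 0.895 to 0.920 in wtSOD1-ACM and 0.884 to 1.01 in mutSOD1-ACM. PolyP thus overlapped with no other group, but only just for mutSOD1-ACM (lowest polyP library 1.02, highest mutSOD1-ACM library 1.015). The share of all gene pairs whose ratio separates polyP in this way was not counted. Gap43 over Stmn2 was 0.650 to 0.743 in polyP and 0.606 to 0.671 in control, and the highest control value was that of replicate 2. Nefh over Nefm was 0.0728 to 0.0875 in polyP and 0.0883 to 0.109 in control. These ranges only just failed to overlap, and control replicate 2 (0.0916) lay among the other controls. Here too the share of all gene pairs without overlap was not counted, and counting error at the low FPKM of Nefh could not be measured. The wtSOD1-ACM libraries ran from 0.0780 to 0.103 and the mutSOD1-ACM libraries from 0.0845 to 0.0992, overlapping with both.

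Some markers of other cells were called in polyP against control, where 23.0% of all genes were called higher and 8.77% lower. Nothing particular to a cell type is drawn from these counts. Summed markers of dividing progenitors (6 genes) ran from 1785 to 2315 FPKM in polyP and from 936 to 1312 FPKM in control, and 3 of the 6 rose. Most of these sums came from Fabp7, a fatty acid binding protein of radial glia. It stood at 984 ± 177 FPKM in control and 1899 ± 207 FPKM in polyP (log2 fold change 0.96, limma adjusted p = 0.000123). Sox2 (0.66, adjusted p = 0.00195) and Pax6 (0.51, adjusted p = 0.0139) rose too. Top2a, Hes5 and Mki67 were not called, and Mki67, the marker of cycling cells, stood at 17.7 ± 4.58 and 17.9 ± 3.27 FPKM. None of the 12 pan-neuronal markers rose and 1 fell, and their sum ran from 1203 to 1516 FPKM in polyP and from 1096 to 1685 FPKM in control. Of the other marker lists, 1 of 7 astrocyte genes (Aldoc) and 1 of 5 oligodendrocyte precursor genes (Olig1) rose, while 1 of 7 oligodendrocyte genes (Mobp), 1 of 5 fibroblast genes (Col1a1), 1 of 2 endothelial genes (Flt1) and 1 of 4 Schwann cell genes (Prx) fell, and 0 of 8 microglia genes was called. The calls of Mobp and Col1a1 were lost in 7 and 12 of the 19 fits that left out 1 library (adjusted p up to 0.12 and 0.127), and 31.8% of all genes were called in this comparison. The part of these cells in the change of Gap43 was not tested.

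**Figure D4:**
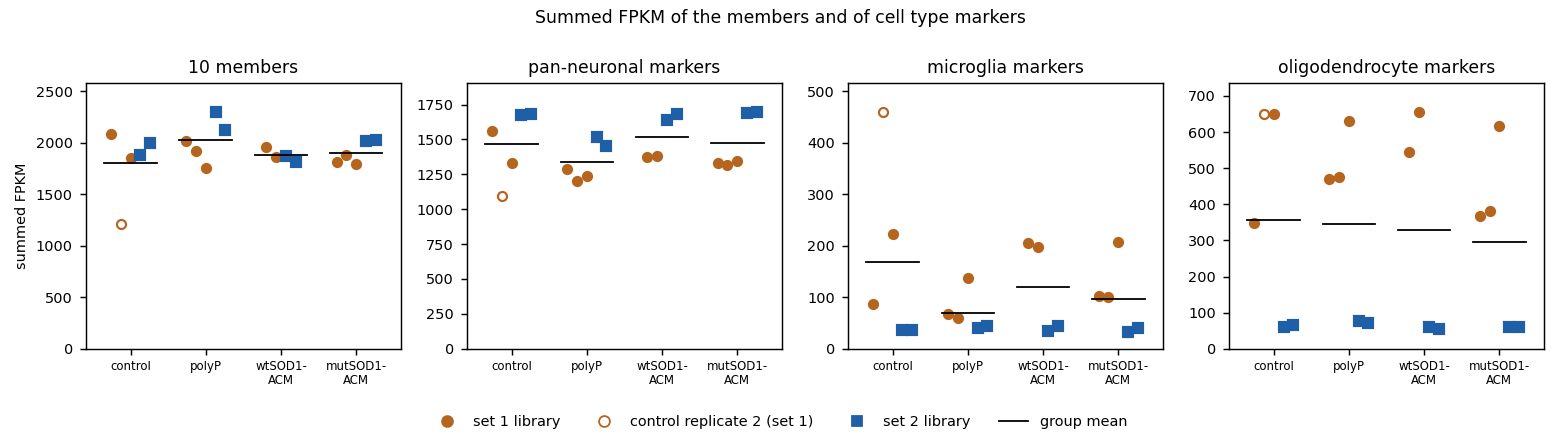
Summed FPKM (vertical axes, from 0) of the 10 genes and of 3 lists of cell type markers in every library, by group (horizontal axes), with the symbols of the plot of levels. Control replicate 2 has the lowest sum of the 10 genes (1211 FPKM; 1753 to 2301 in the other 18 libraries) and the highest sum of microglia markers (460.5 FPKM), and oligodendrocyte markers separate the sets.

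In wtSOD1-ACM against control, none of the 10 genes was called by limma, and none had an unadjusted p under 0.05; over all genes 0.631% were called (0.564% higher and 0.0673% lower), 75 in number. The estimates ran from -0.04 (Map2) to 0.18 (Prph), with a median of 0.08 over the 10 genes and 0.00 over all genes. The widest 95% interval was that of Prph (-0.34 to 0.69) and the narrowest that of Mapt (-0.14 to 0.30). Without control replicate 2 the median of the 10 genes turned to -0.06, against -0.01 over all genes.

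In mutSOD1-ACM against control, again none of the 10 genes was called by limma or had an unadjusted p under 0.05; 0.0168% of all genes were called (0.0168% higher and 0% lower), which is 2 genes, while 426 had an unadjusted p under 0.05. The estimates ran from -0.05 (Map2) to 0.16 (Stmn2), with a median of 0.08 over the 10 genes, which turned to -0.04 without control replicate 2, and the 95% intervals reached from -0.41 to 0.56. The SDs of the mutSOD1-ACM libraries were small for Gap43 (239 ± 8.24 FPKM), Stmn2 (387 ± 18.8 FPKM) and Mapt (253.5 ± 11.7 FPKM).

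The direct contrast of the 2 conditioned media, mutSOD1-ACM against wtSOD1-ACM, compares media whose donor astrocytes differ in the form of human SOD1. None of the 10 genes was called or had an unadjusted p under 0.05, against 0.471% of all genes (0.00841% higher and 0.463% lower). The estimates ran from -0.10 (Prph) to 0.07 (Nefh). For Nefm, 43.8 ± 0.853 FPKM (n = 4) stood against 44.1 ± 3.39 FPKM (n = 5), a log2 fold change of 0.01 with a 95% interval of -0.23 to 0.25. Nefl had an interval of -0.28 to 0.41 and Stmn2 one of -0.22 to 0.34. A p that misses the threshold does not show that the media act alike.

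In polyP against mutSOD1-ACM, 0 of the 10 genes was called by limma, against 19.7% of all genes (14.8% higher and 4.90% lower), and 1, Gap43, had an unadjusted p under 0.05. Gap43 stood at 288 ± 24.1 FPKM in polyP and 239 ± 8.24 FPKM in mutSOD1-ACM (log2 fold change 0.26, SE 0.114, adjusted p = 0.122). The 2 groups only just failed to overlap, with the lowest polyP library at 248.96 and the highest mutSOD1-ACM library at 248.85 FPKM. The share of all genes without overlap was not counted. Whether Gap43 was called differed between alternatives: it passed with only these 2 groups in the fit (adjusted p = 0.0156), without control replicate 2 (adjusted p = 0.00977) and within set 2 (0.28, adjusted p = 0.015), but not within set 1 (0.25, adjusted p = 0.448) or after equal summed FPKM (0.19, adjusted p = 0.257). Nefh had an estimate of -0.18 (adjusted p = 0.339), which passed with the set as a term and control replicate 2 left out (adjusted p = 0.0302). Same-numbered libraries of these 2 groups deviated together. They also lie in the same set, and set means were not subtracted, so pairing by number and set cannot be told apart. With the replicate number as a block, 3767 genes were called in place of 2342. No member of the 10 was called with the block. The 2 contrasts that involve polyP share the polyP libraries, and the 3 contrasts against control share the controls, so their estimates are not independent.

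Genes of the surrounding pathways were taken from lists, and their calls are from limma over all genes. The counts in polyP against control are to be read against the 23.0% of all tested genes called higher and the 8.77% called lower; the lists are small, and nothing particular to a list is drawn from its count. In polyP against control, 3 of the 8 other intermediate filament genes were called, against 31.8% of all genes. The lamin genes, which encode filaments of the nuclear envelope, went in both directions: Lmnb1 rose from 75.1 ± 2.27 to 97.0 ± 2.53 FPKM (0.37, adjusted p = 0.000123) and Lmna fell from 126.5 ± 14.5 to 82.2 ± 14.0 FPKM (-0.62, adjusted p = 0.00044). Vim rose by 0.15 (adjusted p = 0.0472), but lost its call in 22 of 33 alternatives, among them 14 of the 19 fits that left out 1 library (adjusted p 0.0544 to 0.129), and had an estimate of -0.02 after quantile normalization. Among the 4 tested partners of neurofilaments, 2 fell: Plec, which encodes the linker protein plectin (-1.16, adjusted p = 0.00017), from 45.1 ± 10.3 to 19.6 ± 4.72 FPKM, and Bag3, a co-chaperone (-0.50, adjusted p = 0.000131).

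Of the 14 other tubulins tested, 4 rose in polyP, a share near the 23.0% of all genes, and none fell. The 4 were Tubb4b (0.31, adjusted p = 0.000984), Tubg1, the γ-tubulin of microtubule nucleation (0.35, adjusted p = 0.00231), Tuba1b (0.39, adjusted p = 0.00434) and Tubb5 (0.24, adjusted p = 0.0122). Tubb5 had an estimate of -0.05 after quantile normalization and was not called within set 1. The list's median was 0.10, against 0.04 over all genes. Of 18 other microtubule-associated proteins, 1 rose (Tpx2, a spindle assembly factor, 0.48, adjusted p = 0.000247) and 2 fell: Dclk1, a doublecortin-like kinase (-0.27, adjusted p = 0.0189), and Map6 (-0.14, adjusted p = 0.042). Dclk1 lost its call without control replicate 4 or polyP replicate 2 (adjusted p 0.0558 and 0.0568), and Map6 lost it in 7 of the 19 fits that left out 1 library (adjusted p up to 0.107). None of the 3 other stathmins was called; their median was 0.23.

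Growth cone genes other than Gap43 went both ways in polyP. Of 13 tested, 2 rose and 3 fell. Marcks, like Gap43 a membrane-bound protein that binds calmodulin, rose from 133 ± 13.0 to 163.5 ± 8.73 FPKM (0.30, adjusted p = 0.00125). The 3 that fell were Ncam1, from 311 ± 27.5 to 224 ± 26.4 FPKM (-0.48, adjusted p = 0.000271), L1cam (-0.70, adjusted p = 0.00175) and Cntn2 (-0.45, adjusted p = 0.00698), all of them cell adhesion molecules. Marcksl1, named here because its direction depends on the scaling, rose by 0.30 (adjusted p = 0.0106) and had an estimate of -0.002 after quantile normalization. Of 11 severing and plus-end proteins, 3 rose, among them Fignl1 (0.46, adjusted p = 0.00104) and Mapre1, the end-binding protein EB1 (0.43, adjusted p = 0.00323).

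Of 17 axonal transport motor genes, 2 fell in polyP, a share near the 8.77% of all genes, and the list's median of 0.04 equalled that of all genes. The 2 were Dync1h1, the heavy chain of cytoplasmic dynein, from 100.4 ± 9.00 to 69.6 ± 7.90 FPKM (-0.53, adjusted p = 0.000138), and Kif5c, a heavy chain of kinesin, from 193 ± 22.0 to 139 ± 9.14 FPKM (-0.46, adjusted p = 0.00222). Of 10 spectrin and ankyrin genes, 4 fell and 1 rose. First by p were Ank3, the ankyrin of the axon initial segment (-0.40, adjusted p = 0.00101), and the spectrin gene Sptan1 (-0.30, adjusted p = 0.00238). The median of the 10 was -0.24. Of 16 kinases of tau and neurofilaments, 2 rose, below the share of all genes: Mark3 (0.17, adjusted p = 0.00859) and Gsk3a (0.21, adjusted p = 0.0116). Both calls were lost after equal summed FPKM, within set 1 and with only the 2 groups in the fit. Of 10 RNA-binding proteins, 3 rose, among them Hnrnpa1 (0.38, adjusted p = 0.000107) and Tardbp (0.20, adjusted p = 0.000751). Tardbp encodes TDP-43, the protein that aggregates in most amyotrophic lateral sclerosis. The call of Tardbp was lost after equal summed FPKM and after quantile normalization, and that of Hnrnpa1 after quantile normalization. Without control replicate 2, 38 of the 42 list genes called in this comparison (markers included) kept the call, and with equal summed FPKM 33 did.

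In the 3 contrasts without polyP, Bag3 was the 1 list gene called. It stood at 14.4 ± 0.665 FPKM in control, 20.7 ± 0.761 in wtSOD1-ACM, 16.0 ± 1.19 in mutSOD1-ACM and 9.96 ± 1.29 FPKM in polyP. It rose in wtSOD1-ACM against control (0.49, adjusted p = 0.00122) and was lower in mutSOD1-ACM than in wtSOD1-ACM (-0.36, adjusted p = 0.037). The latter call was lost in 14 of the 19 fits that left out 1 library (adjusted p up to 0.173) and the former within set 1 alone. In polyP against mutSOD1-ACM, 27 list genes were called, markers included; of these Bag3 (-0.64, adjusted p = 5.88e-05), Aldoc (0.36, adjusted p = 0.00378) and Sox2 (0.58, adjusted p = 0.0105) were called in all 33 alternatives. Plec (-0.87, adjusted p = 0.00345), Lmna (-0.57, adjusted p = 0.00286), Tpx2 (0.42, adjusted p = 0.00212) and Dync1h1 (-0.30, adjusted p = 0.0101) each lost the call in 1 of them.

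The genes whose FPKM ran most like each of the 10 were found by Pearson's r of log2(FPKM + 1) over the 19 libraries after subtraction of the set means; these are descriptions, and the points share control replicate 2. Over the 30 pairs, 3 for each of the 10 genes, r without control replicate 2 (18 libraries) was lower, at 0.685 to 0.967. Gap43 ran most like Zwint (r = 0.986), Rab6b (0.984) and Pkia (0.981). Stmn2 ran most like Bcat1 (0.983), Tmem229b (0.982) and Uchl1 (0.980), Ina like Fgf13 (0.986), Tmeff1 (0.972) and Vopp1 (0.970), and Tubb3 like Crmp1 (0.976), Prkar1b (0.967) and Samd14 (0.962). Mapt shared Crmp1 (0.969) with Tubb3 and also ran like Rbfox1 (0.963). Nefm ran most like Atcay (0.975), Hspa12a (0.970) and Tubb2a (0.965). The likeness was lower for Nefl (Map3k10, 0.935; Brsk1, 0.918; Sult4a1, 0.916), Map2 (Plcb1 and Cmip, 0.906 each), Nefh (Tmem151a, 0.870; Psd, 0.859; Rell2, 0.855) and Prph (Ramp2, 0.750; Clpb, 0.715; Fam69a, 0.713).

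Among the 45 pairs of the 10 genes, r after subtraction of the set means ran from -0.278 (Prph and Map2) to 0.977 (Ina and Stmn2), with a median of 0.717. Without control replicate 2 the median was 0.484, and the range was -0.517 to 0.931 with the same pairs at its ends. Tubb3 and Mapt (0.917) and Stmn2 and Gap43 (0.868) also stayed close without that library, while Nefl and Nefm went from 0.915 to 0.725. Nefh and Gap43 went from 0.257 to -0.371.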

How the data were processed

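The deposited table holds FPKM per gene for 19 libraries, made by the authors from poly(A)-enriched TruSeq libraries, per the labels' protocols; reads were aligned with HISAT to rat build rn6, per the submitters' processing notes. For the aligner's version, the annotation and the tool behind the FPKM: not given in the sources used here. Depth per library is not in the table; relative depth came from 105 low genes whose 622 values lay within 0.1 of a whole read in 93.9% of cases, a fit to these same genes. All columns were matched to libraries by name.

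The deposited FPKM were tested as log2(FPKM + 1), which understates changes of low genes, with limma 3.58.1 (R 4.3.3, statmod 1.5.0; trend and robust moderation). Genes with an FPKM of 1 or more in at least 4 libraries were tested (11887). All 4 groups entered the same fit with group as the only term; two-sided p-values underwent Benjamini-Hochberg adjustment over all these genes, with calls at adjusted p under 0.05. Every adjusted p in the text comes from limma. The script was tested on simulated data. Sets come from average-linkage clustering of 1 minus Pearson's r, without a test. Alternatives were other pseudocounts, filters and scalings, a set term, each set alone, a replicate block, 2 groups only and leaving out each library.

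The 10 genes and the lists were chosen with earlier results of these data known. Named were all 10 genes, called list genes (at most 4 per list and comparison, by p), the 3 highest of a list at baseline and the 3 genes most like each of the 10; a few of these are left unnamed.

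Groups share replicate numbers. Deviations of same-numbered libraries from their group means correlated at 0.688 to 0.764 in polyP and mutSOD1-ACM (5 of 5 pairs over 0.1). This comes from the data and not from the labels. Same-numbered libraries of polyP and mutSOD1-ACM lie in the same set. The set means were not subtracted, so pairing by number and set cannot be told apart. In polyP against control and in mutSOD1-ACM against control, 4 of 5 pairs were over 0.1. In wtSOD1-ACM against control and in mutSOD1-ACM against wtSOD1-ACM, 3 of 4 were. The lowest r was 0.068 in polyP against control and 0.078 in mutSOD1-ACM against control. It was -0.687 in wtSOD1-ACM against control and -0.725 in mutSOD1-ACM against wtSOD1-ACM. Replicate 3 of wtSOD1-ACM lies in set 2, and replicate 3 of each other group in set 1.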

Additional observations from a re-analysis of the deposited data

Results flagged for a closer look

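Among 40 groups of values (10 genes in 4 groups), 2 had a library far from the rest; with a 95% criterion about 1 in 20 groups is marked by chance. For Nefm in wtSOD1-ACM, replicate 2 stood at 42.53 FPKM and the nearest library at 44.1 FPKM, a gap of 0.831 of the group's range (4 samples). The whole group spanned less than 2 FPKM. For Nefh in mutSOD1-ACM, replicate 5 stood at 4.72 FPKM and the nearest library at 4.04 FPKM, a gap of 0.756 of the range (5 samples).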

How the results depend on the processing

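Over 33 alternatives, 1628 of 1640 values of the 10 genes kept their side of the threshold, 9 passed newly and 3 no longer passed; 150 values that were called in neither case changed sign. The number of the 10 genes called in polyP against control (1) became 0 within set 1, 3 within set 2 (Ina, Stmn2 and Gap43), 0 after equal summed FPKM and 0 with only the 2 groups in the fit. Leaving out 1 library gave 1 to 2. With the set as a term and control replicate 2 left out it was 2 (Nefh and Gap43). In polyP against mutSOD1-ACM the number (0) became 1 within set 2 and 1 with only the 2 groups, was 0 to 1 when 1 library was left out (1 without control replicate 2), and was 2 with the set term and control replicate 2 left out. In the other 3 comparisons it was 0 under all alternatives. Nefh and Prph were not tested under the stricter filter. The cause of these shifts was not tested.

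After quantile normalization the estimates in polyP against control became -0.023 for Vim, -0.052 for Tubb5 and -0.002 for Marcksl1.

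The replicate block left the number of the 10 genes called at 1 in polyP against control and at 0 in the other comparisons. It changed no other call among them. The block joined wtSOD1-ACM replicate 3, a library of set 2, with replicate 3 of the other groups, libraries of set 1. For all genes the block gave 5730 in place of 3779 calls in polyP against control, 119 in place of 75 in wtSOD1-ACM against control, 5 in place of 2 in mutSOD1-ACM against control, 96 in place of 56 between the media and 3767 in place of 2342 in polyP against mutSOD1-ACM.

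With a set term the counts for all genes were 6194, 143, 2, 99 and 4287 in the same order, and with control replicate 2 also left out 5524, 160, 2, 113 and 4856. Within set 1 they were 2470, 55, 0, 45 and 116, and within set 2 5480, 93, 5, 74 and 4529. With only the 2 groups, wtSOD1-ACM against control gave 33 and mutSOD1-ACM against control 0. Equal summed FPKM gave 1533 genes in polyP against mutSOD1-ACM (787 higher and 746 lower, against 1760 and 582 as deposited), median-of-ratios scaling 1479 (769 higher) and quantile normalization 1727 (1115 higher). In polyP against control, median-of-ratios scaling gave 3386 (1912 higher).

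Counting error at low FPKM, as for Nefh and Prph, could not be measured, since the absolute depth is unknown.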
